A study of Mus musculus with 32 samples.

Results

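The 9 genes described here encode the enzymes that make prostaglandin E2 (PGE2), the proteins that carry it across membranes and the enzyme that inactivates it: Pla2g4a, Ptgs1, Ptgs2, Ptges, Ptges2, Ptges3, Slco2a1, Abcc4 and Hpgd. They were chosen by name, for their place in the pathway, from 45616 gene names on the array. Their probes were found by matching the RefSeq transcript each probe was designed for, which gave 11 probes, 3 of them for Ptges and 1 for each other gene. Each gene was represented by the probe with the highest mean signal. Levels are log2 signals relative to the 75th percentile of the same array, so a level of 0 is as bright as that percentile, and levels of different probes were not set against each other.

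The arrays came from mice implanted with MCG 101, a transplantable sarcoma raised with methylcholanthrene. The hosts were either wild type for EP2, the PGE2 receptor encoded by Ptger2, or EP2 knockout, and the same cells were implanted in both. The samples are labelled either as tumor stroma or as tumor. Each tissue was sampled from both genotypes, which gives 4 groups of 8 arrays, 4 labelled female and 4 male. All hosts carried a tumor, and the labels give neither the strain nor the age of the mice, nor whether arrays that share a number came from 1 mouse. P-values therefore measure the spread between these samples.

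PGE2 synthesis starts when cytosolic phospholipase A2 (Pla2g4a) frees arachidonic acid from membranes. The cyclooxygenases COX-1 (Ptgs1, constitutive in most tissues) and COX-2 (Ptgs2, induced by cytokines and growth factors) turn it into PGH2, and a terminal synthase then forms PGE2. Of the synthases, microsomal PGE synthase-1 (Ptges) is inducible and often rises with COX-2, Ptges2 is a constitutive membrane-associated enzyme, and Ptges3 (p23) is also a cochaperone of Hsp90. PGE2 leaves cells in part through the efflux pump MRP4 (Abcc4), is taken up again by the prostaglandin transporter (Slco2a1) and is inactivated in the cytosol by 15-hydroxyprostaglandin dehydrogenase (Hpgd). Many tumors have much COX-2 and little Hpgd, a combination associated with high local PGE2.

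Pla2g4a and Ptgs2 are neighbours on chromosome 1, with no protein-coding gene and 2 non-coding ones (Gm19136 and Ptgs2os) between them in the RefSeq annotation. Their upstream sequences are shown because their levels ran together across the arrays, and that of Ptges because 2 of its probes followed the same pattern in stroma. Each is the 250 bases before the annotated start, read 5′ to 3′ on the gene's strand, from RefSeq on the GRCm38.p6 build. Ptgs2 lies on the + strand (chr1:150099781-150100030), Pla2g4a on the - strand (chr1:149961291-149961540, the upstream one of its 2 starts) and Ptges on the - strand (chr2:30903298-30903547).
Ptgs2: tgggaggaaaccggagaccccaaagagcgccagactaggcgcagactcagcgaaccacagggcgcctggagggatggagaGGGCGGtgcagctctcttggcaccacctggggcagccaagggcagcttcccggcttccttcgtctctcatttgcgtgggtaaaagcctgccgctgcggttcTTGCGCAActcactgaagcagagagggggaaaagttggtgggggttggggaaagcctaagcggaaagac
Pla2g4a: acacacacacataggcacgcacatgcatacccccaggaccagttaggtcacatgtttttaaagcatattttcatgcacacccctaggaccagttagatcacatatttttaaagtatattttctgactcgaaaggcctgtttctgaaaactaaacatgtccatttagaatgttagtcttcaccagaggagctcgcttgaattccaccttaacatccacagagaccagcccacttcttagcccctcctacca
Ptges: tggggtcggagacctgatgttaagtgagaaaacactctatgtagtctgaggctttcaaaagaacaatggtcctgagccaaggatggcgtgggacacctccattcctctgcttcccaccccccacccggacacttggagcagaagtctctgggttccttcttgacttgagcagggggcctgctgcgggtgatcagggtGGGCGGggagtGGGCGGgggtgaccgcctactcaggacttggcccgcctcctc
Capitals mark matches, on either strand, to 7 motifs: the TATA box (TATAAA), the core of the CRE (CGTCA), the E-box (CACGTG), the AP-1 site (TGANTCA), a palindromic C/EBP site (TTGCGCAA), the CCAAT box (CCAAT) and the GC box (GGGCGG). Ptgs2 held TTGCGCAA from 69 to 62 bases before the start, a motif found in 0.166% of 32536 upstream windows of the same length, and a GC box, found in 33% of them. Ptges held 2 GC boxes, and Pla2g4a held a match to none of the 7 motifs. No match overlapped one of another motif. These are letter matches and were not tested as binding sites.

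Between 49.99% and 76.3% of probes were well above background on an array, and no spot was saturated. The Ptger2 probe was no dimmer in the knockout arrays, at -3.17 ± 0.49 (SD, n = 8) against -4.02 ± 0.96 (n = 8) in stroma and -3.91 ± 0.77 against -4.97 ± 0.93 (n = 8 each) in tumor. Whether it lies inside the deletion is not known, so it checks no label. By Xist and 4 Y-linked genes, 5 arrays labelled male read as female: wild-type stroma 9, knockout stroma 95 and 99, and knockout tumor 95 and 99. Knockout tumor 95 is the least clear of them. Its Xist level (-5.29) and Y-linked mean (-6.15) both lay under the array's lowest signal well above background (-5.02). The libraries labelled stroma held much skeletal muscle RNA: the mean level of 9 muscle genes, all 9 well above background on every stroma array, had a median of 7.59 in wild-type and 8.16 in knockout stroma, against 0.19 and 2.04 in the tumors. Wild-type stroma 65 (3.64) and 82 (1.996) had the lowest values of all stroma arrays. Their cell cycle level (8 genes) was 3.84 and 3.96, inside the tumor range of 3.02 to 4.13, while wild-type stroma 9 stood at the other end with -4.58. In tissue RNA, fewer cells of a type and less RNA per cell cannot be told apart.

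The comparison of stroma with tumor showed where the pathway was expressed. Tumor had more Ptgs2, Pla2g4a, Ptges and Ptges3, and stroma had more Hpgd, Ptgs1 and Abcc4, while Ptges2 and Slco2a1 did not pass the test. In the fit of all 32 arrays by limma, 4 of the 9 genes were called higher in tumor, where 37.1% of the 27120 genes tested were, and 3 of 9 higher in stroma, where 25.7% of all genes were. These shares are close to those of the whole array, so the direction of each gene, rather than the number called, describes the pathway. The median difference of the 9 genes was -0.37 (stroma minus tumor), beside -0.14 over all genes tested.

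Ptgs2 had the widest range of the 9 genes. Its lowest, median and highest levels were -5.14, 1.31 and 3.76 in wild-type stroma, and -3.00, -1.66 and 0.79 in knockout stroma. In wild-type tumor they were 1.40, 2.78 and 5.15, and in knockout tumor 1.99, 2.85 and 4.09. In wild-type hosts stroma arrays 1, 45, 65 and 82 lay above the lowest tumor array, whereas in knockout hosts the stroma and tumor ranges did not overlap. The mean was -0.47 ± 2.31 in stroma and 3.02 ± 1.0 in tumor (SD, n = 16 each). The difference was -3.48 ± 0.56 (SE, adjusted p = 6.53e-06), 11.2-fold higher in tumor, and 15 of 16 stroma arrays lay below the tumor median. On each of the 6 slides, which all held both tissues, stroma was lower, by -5.65 to -1.47, and a fixed block for slide left a difference of -3.58.

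Pla2g4a, the phospholipase upstream of both cyclooxygenases, followed the same order. It ran from -2.11 to 2.99 (median 1.87) in wild-type stroma and from -1.10 to 1.62 (median 0.16) in knockout stroma. It ran from 2.07 to 4.03 (median 2.51) in wild-type tumor and from 2.13 to 3.30 (median 2.68) in knockout tumor. As for Ptgs2, the tissues overlapped only in wild-type hosts. Stroma was lower by -1.998 ± 0.34 (SE, adjusted p = 1.31e-05), a 3.99-fold difference, on 15 of 16 arrays against the tumor median and on 6 of 6 slides (-3.14 to -0.55).

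Ptgs1 went the other way. Its levels were -2.11 to 1.96 in wild-type stroma (median -0.36) and 0.19 to 0.80 in knockout stroma (median 0.54), the narrowest of its 4 groups. In tumor they were -3.42 to 0.76 (wild type, median -1.80) and -3.03 to -0.55 (knockout, median -1.69). The highest tumor value was that of wild-type tumor 9. Stroma exceeded tumor by 1.90 ± 0.33 (SE, adjusted p = 2.04e-05), 3.72-fold, with 15 of 16 stroma arrays above the tumor median and 6 of 6 slides higher (0.84 to 2.92).

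**Figure D1:**
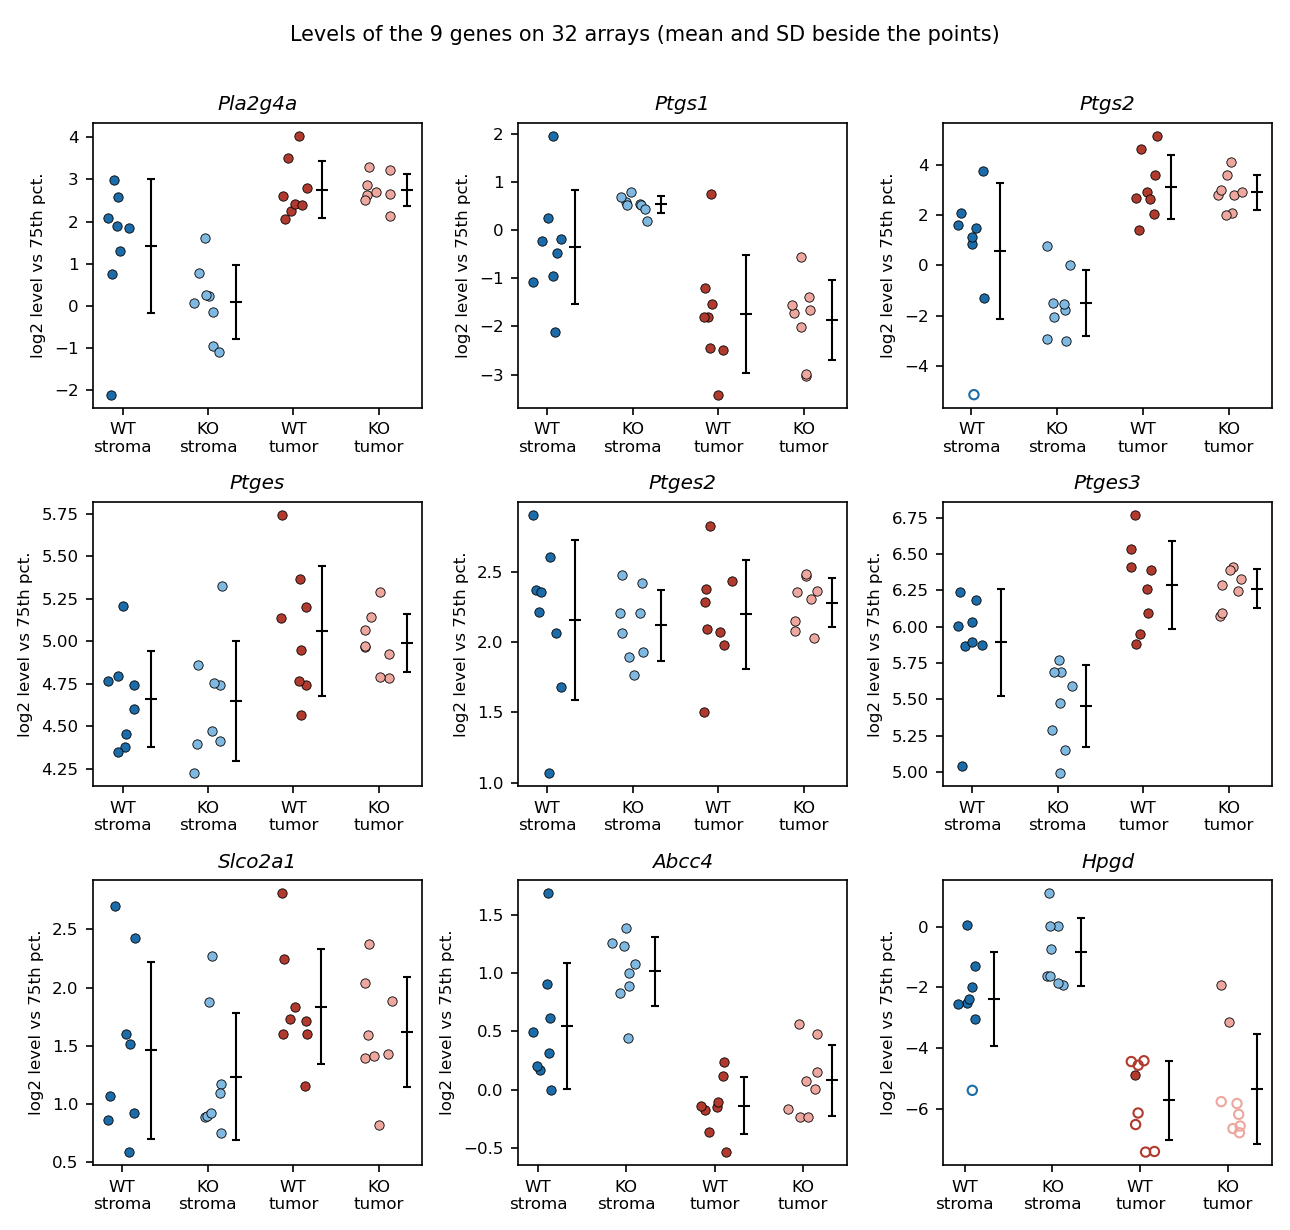
Log2 level relative to the array's 75th percentile (y axis, a separate scale for each gene) of the 9 genes in wild-type (WT) and EP2 knockout (KO) stroma and tumor. Each point is 1 array, open points were not well above background, and bars beside the points give the mean and SD of 8 arrays (7 for Ptges3 in knockout tumor). Ptgs2 and Pla2g4a lie higher in tumor, Hpgd, Ptgs1 and Abcc4 higher in stroma.

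Hpgd, which ends PGE2 signalling, was higher in stroma. Its lowest, median and highest levels were -5.40, -2.45 and 0.05 in wild-type stroma and -1.91, -1.18 and 1.11 in knockout stroma. In tumor they were -7.44, -5.52 and -4.42 (wild type) and -6.80, -6.01 and -1.91 (knockout). Hpgd was well above background on 15 of 16 stroma arrays, the exception being wild-type stroma 82, and on 3 of 16 tumor arrays (wild-type tumor 1 at -4.90, knockout tumor 99 at -3.16 and knockout tumor 81 at -1.91). Of these, knockout tumor 81 lay within the range of the stroma arrays that were well above background (-3.03 to 1.11). The fitted difference was 3.94 ± 0.47 (SE, adjusted p = 1.55e-07), and every stroma array lay above the tumor median. Hpgd entered this fit only through its stroma arrays, so its limma p-values between the tissues are no independent support. Since most tumor values were near background, the difference was also computed with each tumor value raised to its array's lowest signal well above background. The mean difference was then 2.76, at least 6.79-fold higher in stroma. Normexp correction with quantile scaling gave 1.97 (adjusted p = 5.85e-07).

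Among the synthases, Ptges3 was lower in stroma (5.67 ± 0.39, SD, n = 16) than in tumor (6.28 ± 0.23, n = 15, since the spot on knockout tumor 95 was an outlier). The difference was -0.60 ± 0.12 (SE, adjusted p = 8.69e-05), with all 16 stroma arrays under the tumor median, though the ranges met (4.99 to 6.24 against 5.88 to 6.77). It was -0.32 with quantile scaling (adjusted p = 0.00776). Ptges2 stood at 2.14 ± 0.43 in stroma and 2.24 ± 0.29 in tumor (SD, n = 16 each). Its difference of -0.10 (95% interval -0.40 to 0.20, adjusted p = 0.572) was within the spread and turned to 0.02 with the 75th percentile taken over probes bright on all arrays.

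Of the carriers, the exporter gene Abcc4 was higher in stroma. It ran from -0.001 to 1.69 (median 0.41) in wild-type and from 0.44 to 1.39 (median 1.04) in knockout stroma, against -0.54 to 0.24 (median -0.14) and -0.24 to 0.56 (median 0.04) in the tumors. The difference was 0.81 ± 0.13 (SE, adjusted p = 8.73e-06), 1.75-fold, on 16 of 16 arrays and 6 of 6 slides. The importer gene Slco2a1 was 1.35 ± 0.65 in stroma and 1.73 ± 0.48 in tumor (SD, n = 16 each), a difference of -0.38 (95% interval -0.78 to 0.02, adjusted p = 0.0936). It passed the test without wild-type stroma 65 (-0.45, adjusted p = 0.0457) or without knockout stroma 15 (-0.46, adjusted p = 0.0319).

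Ptges needs its 3 probes side by side, since they gave different sizes of the same difference. The brightest probe, which represents the gene here, was 4.66 ± 0.31 in stroma and 5.03 ± 0.29 in tumor (SD, n = 16 each), lower by -0.37 ± 0.11 in stroma (SE, adjusted p = 0.00462). By the middle probe Ptges was 0.86 ± 1.77 in wild-type stroma, -0.38 ± 0.81 in knockout stroma, 3.14 ± 0.74 in wild-type tumor and 2.74 ± 0.32 in knockout tumor (SD, n = 8 each). In a fit of all 34968 probes tested, its difference was -2.70 ± 0.36 (SE, adjusted p = 6.76e-07). By the dimmest probe the 4 means were -0.89 ± 1.61, -2.16 ± 0.93, 1.10 ± 1.05 and 0.79 ± 0.74 (SD, n = 8 each), and the difference was -2.47 ± 0.40 (SE, adjusted p = 6.48e-06). All 3 probes are annotated to the same transcript and were well above background on all 32 arrays. The 2 dimmer probes thus showed the inducible synthase higher in tumor by an amount between those of Pla2g4a and Ptgs2, and the brightest probe showed a much smaller difference. Which probe follows the transcript better was not tested, and the mean of the 3 gave -1.85 (adjusted p = 7.96e-07).

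**Figure D2:**
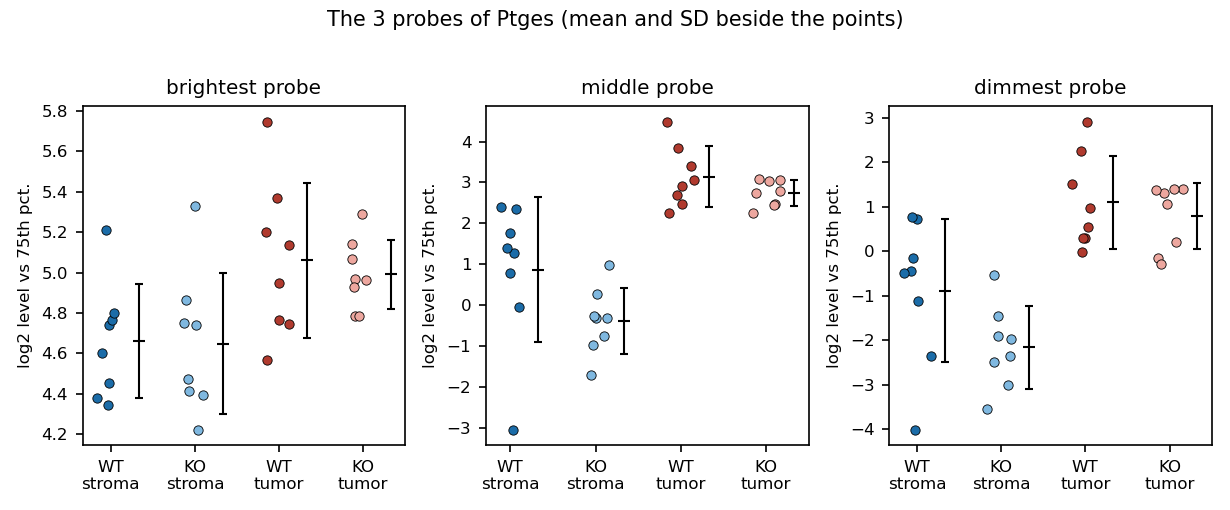
Log2 level relative to the array's 75th percentile of the 3 Ptges probes, with 1 point per array and the mean and SD of 8 arrays beside each group (WT, wild type; KO, EP2 knockout). The brightest probe spans 4.22 to 5.75 over all arrays, and the middle probe spans -3.05 to 4.48 with the tumors on top. The 3 y axes differ.

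The tissue difference was also taken within each host genotype. In wild-type hosts 5 of the 9 genes passed: Hpgd (3.35 ± 0.67, SE, adjusted p = 9.73e-04), Ptgs1 (1.39, adjusted p = 0.0284) and Abcc4 (0.69, adjusted p = 0.00972) were higher in stroma, where 11.9% of genes were, and Ptgs2 (-2.56, adjusted p = 0.0182) and Pla2g4a (-1.34, adjusted p = 0.0359) were higher in tumor, where 18.3% were. Hpgd was well above background on 1 of the 8 wild-type tumor arrays, and its difference was 2.30 (adjusted p = 0.00152) with values below the background floor raised to it. The calls of Ptgs1 and Pla2g4a lie near the threshold: leaving out 1 array ended the call for 5 and 8 of 16 arrays. Pla2g4a fell to -0.82 (adjusted p = 0.0820) without wild-type stroma 9. Without the arrays against their sex label Ptgs1 (1.40, adjusted p = 0.0655), Ptgs2 (-1.73, adjusted p = 0.0505) and Pla2g4a (-0.82, adjusted p = 0.112) missed the threshold. With array weights Ptgs2 (-1.002, adjusted p = 0.0788) and Pla2g4a (-0.57, adjusted p = 0.0805) did. In knockout hosts 6 of the 9 passed, 3 higher in stroma (26.3% of genes) and 3 higher in tumor (33.1%). They were Hpgd (4.54 ± 0.67, adjusted p = 3.10e-06), Ptgs1 (2.40 ± 0.47, adjusted p = 9.37e-05), Abcc4 (0.94 ± 0.19, adjusted p = 1.26e-04), Ptgs2 (-4.40 ± 0.79, adjusted p = 3.36e-05), Pla2g4a (-2.65 ± 0.48, adjusted p = 3.60e-05) and Ptges3 (-0.81 ± 0.17, adjusted p = 2.23e-04). Hpgd was well above background on 2 of the 8 knockout tumor arrays, and its difference was 3.42 (adjusted p = 1.61e-06) with values raised to the floor. Hpgd entered the fit only through its stroma arrays, so its p-values within wild-type and knockout hosts are no independent support. The stroma and tumor ranges of Ptgs1, Ptgs2, Pla2g4a and Ptges3 did not overlap in knockout hosts. The share of all genes without overlap was not computed, so this describes the 4 genes and does not set the pathway apart. Ptges, by its brightest probe, missed the threshold in wild-type (-0.40, adjusted p = 0.0525) and knockout hosts (-0.34, adjusted p = 0.0586). The mean of its 3 probes passed by limma in both, at -1.55 (adjusted p = 0.00298) and -2.14 (adjusted p = 1.39e-05).

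**Figure D3:**
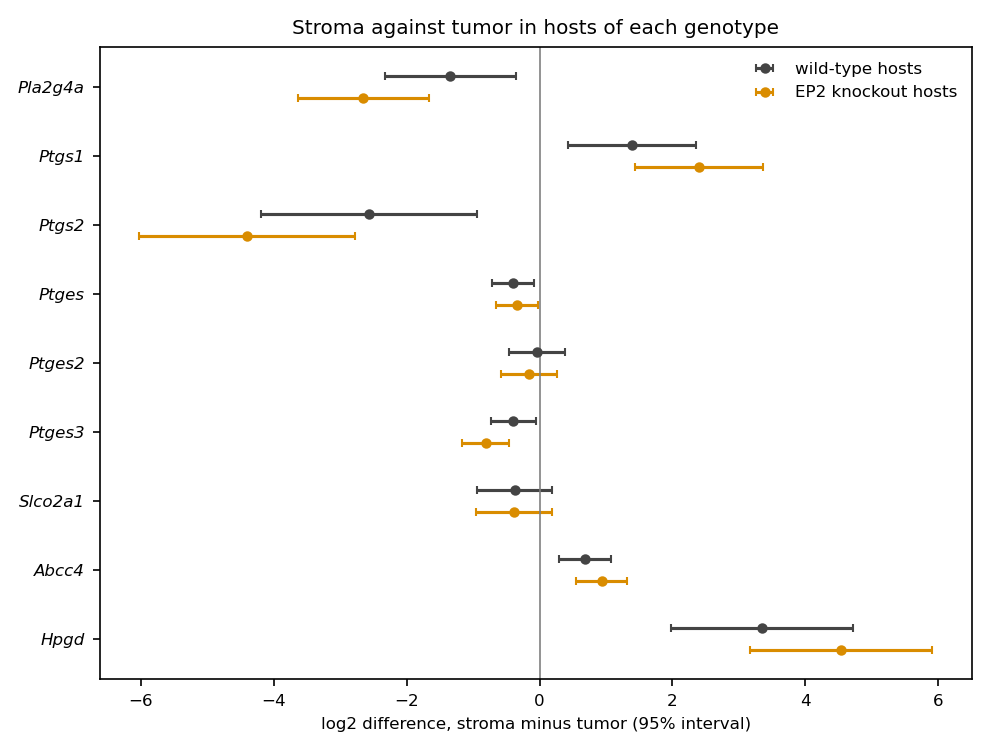
Log2 difference, stroma minus tumor (x axis), of the 9 genes in wild-type hosts (grey) and EP2 knockout hosts (orange). Points are limma estimates from 8 arrays a group and bars their 95% intervals, with Ptges shown by its brightest probe only. For Ptgs2, Pla2g4a, Hpgd and Ptgs1 the estimate lies farther from 0 in knockout hosts, but no difference between the genotypes passed the test, and most tumor values of Hpgd were near background.

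The study's own question was what the lack of EP2 in the host changed, here in the stroma. Knockout stroma had lower mean levels of Ptgs2, Pla2g4a and Ptges3 and higher mean levels of Hpgd, Ptgs1 and Abcc4, but none of the 9 genes passed the test. Nor did any gene on the array: 0% of 24782 genes were called in either direction by limma, although before adjustment 7000 (28.2%) had a p under 0.05, and the smallest p after it was 0.113. Ptgs2 differed by -2.06 ± 1.003 (SE, adjusted p = 0.188), Pla2g4a by -1.32 ± 0.62 (adjusted p = 0.177), Ptges3 by -0.44 ± 0.20 (adjusted p = 0.166), Hpgd by 1.57 ± 0.64 (adjusted p = 0.143), Ptgs1 by 0.89 ± 0.43 (adjusted p = 0.183) and Abcc4 by 0.47 ± 0.23 (adjusted p = 0.196). For each of these 6 genes all 8 knockout arrays lay on 1 side of the wild-type median. The share of all genes that did so was not computed, so this adds nothing to the test. The ranges overlapped, and the wild-type arrays spread more widely than the knockout arrays. The brightest Ptges probe (-0.01, 95% interval -0.40 to 0.37), Ptges2 (-0.04, -0.55 to 0.48) and Slco2a1 (-0.23, -0.87 to 0.42) showed no difference beyond the spread. The middle and dimmest Ptges probes differed by -1.24 ± 0.66 and -1.27 ± 0.63 (SE, adjusted p = 0.215 and 0.192).

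These estimates turn on a few wild-type arrays. Wild-type stroma 9, one of those whose sex genes go against the label, had the lowest Ptgs2 (-5.14), Pla2g4a (-2.11) and middle-probe Ptges (-3.05) of all 32 arrays. Without it the differences were -2.89 for Ptgs2 (adjusted p = 0.00992), -1.84 for Pla2g4a (adjusted p = 0.00776) and 0.63 for Abcc4 (adjusted p = 0.0216), all of them called, as were 8325 genes. In a separate fit of probes, the middle Ptges probe was called at -1.82 (adjusted p = 0.00867), as were 10858 of 31849 probes tested. Wild-type stroma 4 had the highest Ptgs1 (1.96) and Hpgd (0.05) and the lowest Ptges3 (5.04) of its group. Without that array Ptgs1 (1.29, adjusted p = 0.00915), Hpgd (2.01, adjusted p = 0.0238) and Ptges3 (-0.57, adjusted p = 0.0256) were called, as were 5116 genes. The fit of all stroma arrays tested 24782 genes, and the gene fits without 1 array slightly fewer. Many other genes were called with these members, so the calls do not set the pathway apart. In the other direction, without wild-type stroma 65 and 82 the Ptgs2 difference was -0.52 (adjusted p = 0.853), that of Pla2g4a -0.45 (adjusted p = 0.821), of Hpgd 0.76 (adjusted p = 0.706) and of Ptgs1 0.31 (adjusted p = 0.819), and no gene of the 9 was called. That fit gives both sexes equal weight, and its wild-type male mean rests on wild-type stroma 4 and 9 (-1.30 and -5.14 for Ptgs2). Leaving out both sets, the 3 stroma arrays against their sex label and arrays 65 and 82, leaves wild-type stroma 4 as the only wild-type male array. The difference was then -1.25 for Ptgs2, and that of Ptgs1 turned to -0.24. With array weights 7 of the 9 genes were called, Ptgs2 at -4.61, beside 17853 of all 24782 genes tested.

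**Figure D4:**
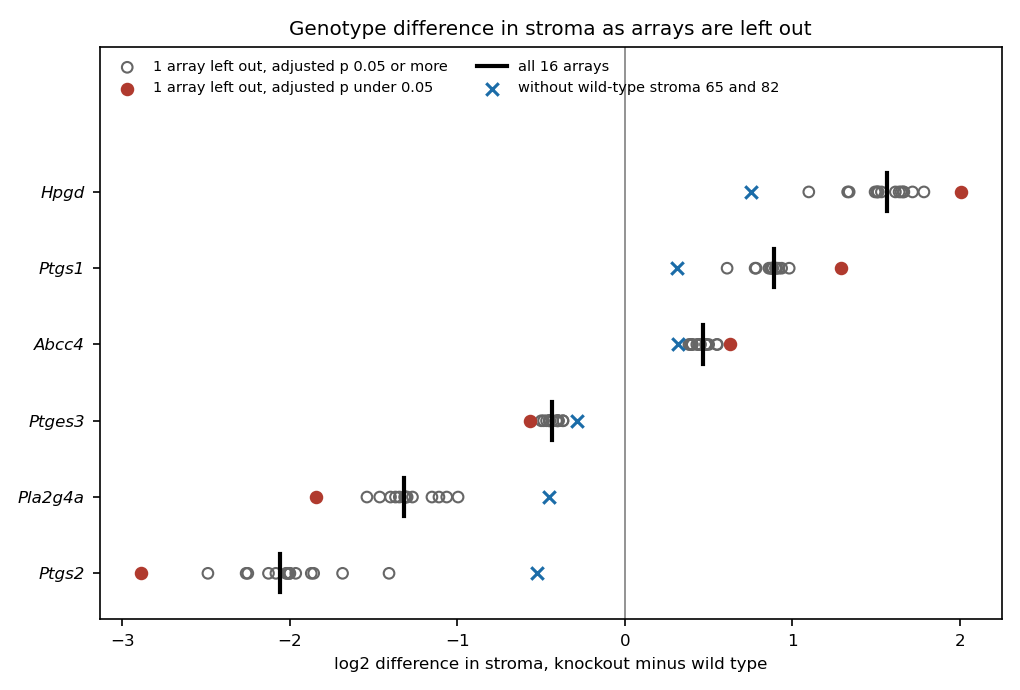
Log2 difference in stroma, knockout minus wild type (x axis), of 6 genes. Black bars give the value from all 16 arrays, circles the value with 1 array left out (filled where the adjusted p fell under 0.05), and crosses the value without wild-type stroma 65 and 82. The 6 filled circles all come from leaving out wild-type stroma 4 or 9, and the crosses lie nearer 0, at -0.52 for Ptgs2 and 0.76 for Hpgd.

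Within slides, knockout stroma was lower on 4 of 5 slides for Ptgs2 (-5.81 to 5.93) and Pla2g4a (-2.72 to 3.73). Hpgd was higher on 5 of 5 (0.79 to 2.28), as was Ptgs1 (0.28 to 1.98), and Ptges3 was lower on 5 of 5 (-0.95 to -0.31). The slide that opposed the others for Ptgs2, Pla2g4a and Abcc4 held wild-type stroma 9. A fixed block for slide gave -2.04 for Ptgs2 (adjusted p = 0.365), -1.08 for Pla2g4a (adjusted p = 0.414), 1.64 for Hpgd (adjusted p = 0.243) and 0.20 for Abcc4 (adjusted p = 0.655).

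In the tumors themselves, the host's genotype went with no detectable change in the pathway. None of the 8 genes tested passed, as 0% of 23749 genes did, with 790 (3.33%) at an unadjusted p under 0.05. Ptgs2 was 2.91 ± 0.70 in knockout and 3.13 ± 1.27 in wild-type tumor (SD, n = 8 each), a difference of -0.22 with a 95% interval of -1.03 to 0.59. That of Pla2g4a was -0.01 (-0.46 to 0.44), of Ptgs1 -0.12 (-1.15 to 0.91), of the brightest Ptges probe -0.07 (-0.36 to 0.22), of Ptges2 0.08 (-0.27 to 0.43), of Ptges3 -0.02 (-0.31 to 0.26), of Slco2a1 -0.22 (-0.72 to 0.29) and of Abcc4 0.22 (-0.06 to 0.49). The middle and dimmest Ptges probes had wider intervals, at -0.40 (-0.90 to 0.10) and -0.31 (-1.22 to 0.61), and did not pass either. Hpgd was well above background on 1 wild-type and 2 knockout tumor arrays and was not tested there.

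The genotype differences of the 2 tissues were then set against each other. The stroma difference minus the tumor difference was -1.84 ± 1.12 for Ptgs2 (SE, adjusted p = 0.334), -1.31 ± 0.68 for Pla2g4a (adjusted p = 0.265) and 1.01 ± 0.67 for Ptgs1 (adjusted p = 0.372). No value is given for Hpgd, whose tumor signals were mostly at background. None of the 9 genes and 0% of 27120 passed, while 5722 (21.1%) had an unadjusted p under 0.05. Without wild-type stroma 9, Ptgs2 (-2.67, adjusted p = 0.0257) and Pla2g4a (-1.83, adjusted p = 0.0104) passed, with 5273 genes in all.

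Sex was compared within each tissue from the labels, 5 of which go against the sex genes. In stroma no gene of the 9 passed (0% of 24782, 555 at an unadjusted p under 0.05), with differences, male minus female, of -0.56 for Pla2g4a to 0.45 for Slco2a1. In tumor none passed either (0% of 23749, 1713 at an unadjusted p under 0.05). The largest tumor values were 1.14 ± 0.38 for Ptgs2 (SE, adjusted p = 0.563) and 0.70 ± 0.21 for Pla2g4a (adjusted p = 0.505). Male wild-type tumors stood at 4.004 ± 1.11 for Ptgs2 and female ones at 2.25 ± 0.67 (SD, n = 4 each), beside 3.17 ± 0.91 and 2.64 ± 0.38 (n = 4 each) in knockout hosts. The male wild-type tumors 9, 65 and 82, at 3.58, 4.63 and 5.15 for Ptgs2, also had the highest mean level of 7 neutrophil genes (3.24, 3.21 and 3.88, against -0.09 to 1.504 on the other 13 tumor arrays). Over the 16 tumor arrays r with that list was 0.756 for Ptgs2 (rho 0.574, permutation adjusted p = 0.0294 and 0.235 over 96 relations) and 0.455 without wild-type tumor 82 and 65, so it rests on them. The part of neutrophils in these values was not tested. Of the cytokine and immediate-early genes that act on COX-2, those with the smallest p in the same comparison were Egr1 (1.19 ± 0.20, SE, adjusted p = 0.267), Il1b (2.87 ± 0.62, adjusted p = 0.333), Il6 (2.47 ± 0.65, adjusted p = 0.441) and Zfp36 (1.42 ± 0.38, adjusted p = 0.457).

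The members did not vary independently over the arrays of a tissue. Ptgs2 and Pla2g4a rose and fell together in stroma, with a Pearson r of 0.931 and a Spearman rho of 0.891 over 16 arrays (permutation adjusted p = 3.6e-04 and 4.8e-04 over 36 pairs). The r was 0.876 without the 2 arrays with the most extreme Ptgs2 (wild-type stroma 9 and 65), 0.902 without wild-type stroma 65 and 82, and 0.933 after the genotype and sex means were removed. Among the arrays of each of the 2 scan days it was 0.957 (n = 7) and 0.953 (n = 9). In tumor it was 0.906 (rho 0.777, permutation adjusted p = 5.6e-04 and 0.0202 over 28 pairs), 0.788 without wild-type tumor 82 and 65, and 0.791 (n = 9) and 0.977 (n = 7) within the scan days. It was the only one of the 28 tumor pairs to pass. The pair is not alone in stroma: of 14226 genes compared there, 1590 had an r over 0.8 with Ptgs2 and 1954 with Pla2g4a, against 94 and 67 of 13523 in tumor.

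In stroma 6 of 36 pairs passed by r and 6 by rho, of which 5 were shared. Abcc4 ran against Pla2g4a (r = -0.861, rho = -0.844, permutation adjusted p = 5.4e-04 and 4.8e-04) and against Ptgs2 (r = -0.738, rho = -0.697, permutation adjusted p = 0.00835 and 0.0224). Ptgs1 ran with Hpgd (r = 0.801, rho = 0.779, permutation adjusted p = 0.00378 and 0.00576) and against Ptges3 (r = -0.792, rho = -0.909, permutation adjusted p = 0.0018 and 3.6e-04). Without wild-type stroma 9 and 65 the r of Abcc4 was -0.880 with Pla2g4a and -0.722 with Ptgs2, and without wild-type stroma 82 and 4 that of Ptgs1 was 0.622 with Hpgd and -0.819 with Ptges3. Within the 2 scan days (n = 7 and 9) the 4 values were -0.629 and -0.939, -0.525 and -0.864, 0.81 and 0.872, and -0.88 and -0.693, in the same order. Ptges3 and Hpgd passed by rho alone (r = -0.597, rho = -0.756, permutation adjusted p = 0.0684 and 0.00792), with an r of -0.546 without knockout stroma 15 and wild-type stroma 4. Ptges2 with Ptges3, which passed by r alone (r = 0.636, rho = 0.579, permutation adjusted p = 0.0429 and 0.0831), fell to 0.494 without wild-type stroma 4 and 9 and rests on them.

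The 2 dimmer Ptges probes ran with Ptgs2 and Pla2g4a in stroma, where the brightest had an r of -0.232 and -0.457 with them (permutation adjusted p = 0.467 and 0.144). The middle probe had an r of 0.954 with Ptgs2 (rho 0.927) and 0.978 with Pla2g4a (rho 0.974), and the dimmest 0.920 (rho 0.868) and 0.968 (rho 0.956), each with a permutation adjusted p of 6e-05 for r over 24 relations. Without the 2 most extreme arrays (wild-type stroma 9 and 65 for the middle probe, 82 and 65 for the dimmest) r ran from 0.891 to 0.963. Within the scan days r ran from 0.917 to 0.989. In tumor the r of the middle probe with Ptgs2 was 0.867 (rho 0.768, permutation adjusted p = 4.2e-04 and 0.0162 over 21 relations), 0.683 without the 2 most extreme arrays, and 0.619 (n = 9) and 0.982 (n = 7) within scan days. With Pla2g4a the middle probe had an r of 0.767 in tumor (rho 0.579, permutation adjusted p = 0.00581 and 0.101), 0.349 without the same arrays and 0.215 and 0.972 within scan days. The dimmest had 0.766 with Ptgs2 (rho 0.668, permutation adjusted p = 0.00515 and 0.0393) and 0.643 with Pla2g4a (rho 0.397, permutation adjusted p = 0.0286 and 0.281). The brightest probe passed by r in tumor too, with 0.599 for Ptgs2 (permutation adjusted p = 0.0491) and 0.672 for Pla2g4a (0.0240), but not by rho (0.391 and 0.101), and had 0.114 and 0.220 without wild-type tumor 82 and 65. The relations of the brightest probe, and that of the middle probe with Pla2g4a, rest on those arrays.

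In stroma Ptgs2, Pla2g4a and the 2 dimmer Ptges probes also followed the cell cycle level closely. Over 16 stroma arrays r with the mean of the 8 cell cycle genes was 0.939 for Ptgs2 (rho 0.921), 0.963 for Pla2g4a (rho 0.965) and -0.848 for Abcc4 (rho -0.838), with permutation adjusted p of 5.4e-04, 5.4e-04 and 7.2e-04 over the 108 relations of 9 genes with 12 marker lists. It was 0.978 (rho 0.979) for the middle and 0.928 (rho 0.932) for the dimmest Ptges probe, with a permutation adjusted p of 1.2e-04 over 36 relations, but -0.412 (rho -0.094, permutation adjusted p = 0.194) for the brightest. Without wild-type stroma 65 and 82 the values were 0.936 for Ptgs2, 0.957 for Pla2g4a and -0.851 for Abcc4. Within the scan days they were 0.961 and 0.969 for Ptgs2 and 0.968 and 0.967 for Pla2g4a (n = 7 and 9). In tumor, where the cell cycle level spanned only 3.02 to 4.13, r was -0.413 for Ptgs2 (rho -0.294, permutation adjusted p = 0.414 and 0.626) and -0.264 for Pla2g4a (rho -0.060). The cell cycle list stood higher in wild-type stroma (median 2.84, range -4.58 to 3.96) than in knockout stroma (median 0.32, range -1.16 to 2.61), so it moved with the genotype differences of Ptgs2 and Pla2g4a, and its part in them was not tested. In stroma the middle and dimmest Ptges probes also ran against the skeletal muscle list (r = -0.754 and -0.792, permutation adjusted p = 0.00342 and 1.2e-04). The same held for the smooth muscle and pericyte list (r = -0.698 and -0.816, permutation adjusted p = 0.0139 and 8.64e-04) and the endothelial list (r = -0.663 and -0.695, permutation adjusted p = 0.0194 and 0.0139). By r no other list passed for either probe, and the part of these lists was not tested.

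**Figure D5:**
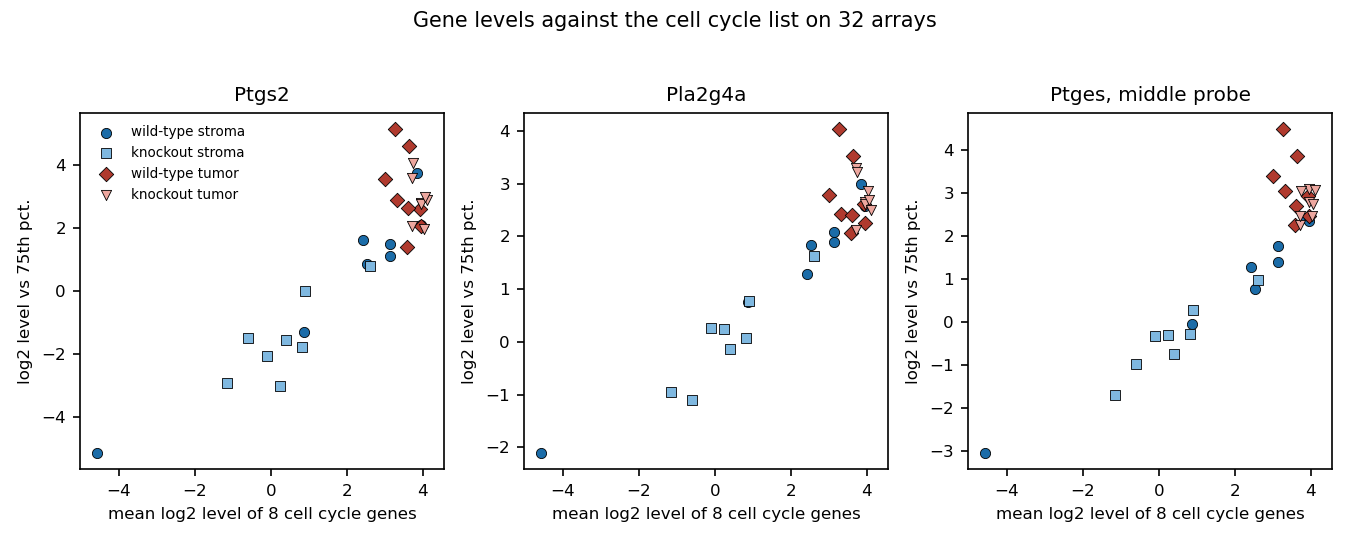
Log2 level relative to the array's 75th percentile of Ptgs2, Pla2g4a and the middle Ptges probe (y axes) against the mean log2 level of 8 cell cycle genes (x axis) on all 32 arrays, with symbols for the 4 groups. The 16 stroma arrays form a rising band (r = 0.939, 0.963 and 0.978), and the tumor arrays lie at its upper end, between 3.02 and 4.13 on the x axis, and spread upward.

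Hpgd and Ptgs1 moved in stroma with markers of several other cell types. Ptgs1 had an r of 0.836 (rho 0.612) with 7 endothelial genes and 0.810 (rho 0.732) with 4 lymphatic endothelial genes, with permutation adjusted p of 0.00135 and 0.0474, and 0.00351 and 0.0169. Hpgd had an r of 0.783 (rho 0.671, permutation adjusted p = 0.00412 and 0.0260) with 6 smooth muscle and pericyte genes and 0.658 (rho 0.653, permutation adjusted p = 0.0231 and 0.0305) with 7 adipocyte genes. Without the 2 most extreme arrays (wild-type stroma 82 and 4 for Ptgs1, wild-type stroma 82 and knockout stroma 81 for Hpgd) the 4 values of r were 0.718, 0.693, 0.557 and 0.398. Without wild-type stroma 65 and 82 they were 0.764 (permutation adjusted p = 0.0228, but 0.266 for rho), 0.535 (0.137), 0.646 (0.0550) and 0.422 (0.265), so those of Hpgd and that of Ptgs1 with the lymphatic list rest on these arrays. Ptgs1 also ran with 8 macrophage genes (r = 0.675, rho = 0.715, permutation adjusted p = 0.0211 and 0.0194) and 6 mast cell genes (r = 0.589, rho = 0.671, permutation adjusted p = 0.0461 and 0.0260), with 0.532 and 0.541 without wild-type stroma 82 and 4. The macrophage medians were 3.23 and 4.12 in wild-type and knockout stroma and 1.24 and 1.84 in the tumors, and the mast cell medians 0.35, 1.29, -1.23 and -1.02. The smooth muscle list ranged from 0.16 to 4.04 (median 1.76) in wild-type and from 1.94 to 4.27 (median 2.55) in knockout stroma, against -1.08 to 1.13 in the tumors. The endothelial list ranged from -0.18 to 1.91 and from 0.78 to 1.66 in the 2 stroma groups and from -1.45 to 0.09 in the tumors. The part of these cells in the Hpgd and Ptgs1 differences was not tested.

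The genes most like each member were found by Pearson r over the 16 arrays of a tissue, which share arrays and scaling. In tumor the levels of Ptgs2 were most like those of Ereg (r = 0.973), which encodes the growth factor epiregulin, Socs3 (0.949), a feedback inhibitor of cytokine signalling, and Il13ra1 (0.924), a subunit of the interleukin-13 receptor. Those of Pla2g4a were most like Socs3 (0.937), Ereg (0.932) and Trib1 (0.925), so both lists held Ereg and Socs3. In stroma Ptgs2 was most like 3300005D01Rik (0.970), Stil (0.966), a centriole duplication gene, and again Ereg (0.964). Pla2g4a there was most like Steap2 (0.991), Plaur (0.987), the urokinase receptor gene, and Nrm (0.986). The brightest Ptges probe was most like the ribosomal protein gene Rpl23 (0.925), Ubb (0.918) and Rpl29 (0.918) in tumor. For Hpgd in stroma the nearest were Tesc (0.899), Itga8 (0.877) and Zfp503 (0.877), and for Ptgs1 Ptprf (0.968), Nhsl2 (0.959) and Fam174b (0.957). Abcc4 was nearest to Wdr7 (0.937) in stroma and to Ccr7 (0.925) in tumor, Ptges3 to Ccdc58 (0.967) and Snhg9 (0.946), and Slco2a1 to Pan3 (0.845) and Gm6377 (0.754), in the same order. Ptges2 was nearest to Sap18b (0.966) in stroma.

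Other genes around the pathway, 69 in 5 lists, were also compared. Between stroma and tumor 62 were tested, of which 27 were higher in stroma and 16 in tumor (median 0.26), beside 25.7% and 37.1% of all genes tested. Those with the smallest p included Prxl2b, which forms prostaglandin F2 alpha, at 4.32 ± 0.45 (SE, adjusted p = 4.02e-08), Slco2b1, an organic anion carrier, at 3.39 ± 0.36 (adjusted p = 4.95e-08), and Cbr1, a carbonyl reductase that also acts on PGE2, at 2.65 ± 0.29 (adjusted p = 5.45e-08). Pla2g4e, another cytosolic phospholipase, was well above background on 14 stroma arrays and 1 tumor array, with a mean of -2.13 against -6.55. With tumor values raised to the background floor it was at least 5.66-fold higher in stroma. It entered the fit only through its stroma arrays, so its limma p (adjusted p = 3.81e-08, from values not raised) is no independent support. Of 18 genes of arachidonic acid release and re-esterification 9 were higher in stroma and 4 in tumor, of 14 other prostanoid and leukotriene enzymes 7 and 3, of 7 carriers and breakdown enzymes 3 and 2, of 4 PGE2 receptors 3 and 0, and of 19 inducers and restraints of the inducible enzymes 5 and 7. By genotype none of the 60 tested in stroma and none of the 55 tested in tumor passed. In stroma the smallest p were those of the leukotriene genes Alox5 (1.48 ± 0.43, SE), Ltc4s (1.34 ± 0.41) and Lta4h (-0.72 ± 0.22), all with an adjusted p of 0.120, and Pla2g4e (2.06 ± 0.75, adjusted p = 0.125).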

How the data were processed

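Total RNA (200 ng per sample, with an RNA integrity number above 7, per the labels' protocols) was made into Cy3-labelled cRNA and read on one-colour arrays of 62976 spots. The submitters' processing notes name Agilent Feature Extraction, version 10.7.3.1. Per the file headers, the authors deposited its processed signal, a linear intensity per spot. The deposited series matrix holds log2 values, centred per probe within each tissue: after an offset per array was removed, 100% of its values lay within 0.01 of those computed here. It was used as an alternative within a tissue only.

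Outlier spots were left out, replicate spots averaged, and log2 intensity taken relative to the 75th percentile of the 56605 non-control probes of the array. That percentile ran from 402 to 1133. Probes were named by their RefSeq transcript (GRCm38.p6, names only, since the file headers name another build), with 32994 probes matched, and the brightest probe of each name was kept. Genes entered a fit when 8 or more of its arrays showed them well above background and no more than 2 values were missing. The fits were made with limma 3.58.1 (lmFit, eBayes) in R 4.3.3, with statmod 1.5.0 and data.table (version 1.17.8), on 1 mean per genotype and sex, within each tissue or over all 32 arrays, with Benjamini-Hochberg adjustment over all genes and a threshold of 0.05. The fit was also run on simulated data as a check of the code. Their spread was capped below that of Ptgs2, Pla2g4a and Hpgd in stroma. The check therefore does not show how often changes in these genes would be found. Correlations used two-sided permutation tests with 100000 resamples, whose smallest possible p is 1e-05. Promoters and figures used Python 3.11.15 with pandas 2.3.3, NumPy 2.4.6 and matplotlib 3.10.9. The number of arrays limits the precision.

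The replicate numbers were checked for pairing of the tissues. Over 15 shared numbers the correlation of deviations ran from -0.122 to 0.357, with 8 of 15 over 0.1, so the numbers were not used to pair samples. The arrays lay on 6 slides read on 2 scan days.

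Members and lists were chosen with earlier results of these data known. Named are all 9 members, Ptger2 and the sex-linked genes, up to 4 genes per comparison from 5 pathway lists by smallest p, and the 3 genes most like each member among those well above background on at least 12 of 16 arrays, of which only the nearest is given for some members. The fits of single Ptges probes, the relations with marker lists, the background floor and the joint removal of arrays were added after the data were seen.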

Additional observations from a re-analysis of the deposited data

Results flagged for a closer look

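In 2 of the 36 groups (8 arrays each, but 7 for Ptges3 in knockout tumor), 1 array lay apart from the others by more than Dixon's 95% critical ratio for that number of values (gap to the nearest array over the range of the group). Chance flags about 1 in 20 groups. For Ptges3, wild-type stroma 4 stood at 5.04, below the next array at 5.87, with a ratio of 0.693. For Pla2g4a, wild-type stroma 9 stood at -2.11, below the next array at 0.75, with a ratio of 0.560.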

How the results depend on the processing

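Between stroma and tumor over all 32 arrays, the calls of Ptgs1, Ptgs2, Ptges, Ptges3, Pla2g4a, Hpgd and Abcc4 kept their direction and side of the threshold under each alternative that tested them. Ptgs2 and Hpgd, well above background on 31 and 18 of 32 arrays, were not tested when every array had to be so. Elsewhere results moved, and the cause was not tested. With array weights, whose fit stopped before converging, 7 members (17853 of 24782 genes) were called for genotype in stroma and 2 (5797 of 24782) for sex in stroma. For sex in tumor 2 (93 of 23749) were called and for genotype by tissue 4 (14062 of 27120), against 0 in each main fit. Without the arrays against their sex label these were 2 (5508 genes), 0 (4 genes), 0 (25 genes) and 1 (2130 genes), and 3 members (5427 genes) were called between tissues in wild-type hosts, against 5 (8192 genes). One fit of all 32 arrays called 4336 of 27120 genes for genotype in stroma. Without wild-type stroma 65 and 82, 12890 genes were called between tissues in wild-type hosts. Asking for every array well above background gave 10980 genes between tissues, 5312 in wild-type and 10443 in knockout hosts, against 17037, 8192 and 16096. Without knockout tumor 51 and 81, 3 pairs of members passed in tumor, against 1. Leaving out 1 array gave 0 to 3 members (0 to 8325 genes) for genotype in stroma, 3 to 7 members in wild-type hosts, 0 to 2 (0 to 5273 genes) for genotype by tissue and 0 to 54 genes for sex in tumor.

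Signs turned only for differences that had not passed the test. For genotype in stroma, Ptges was 0.027 with normexp, 0.024 with quantile scaling, 0.072 with the percentile of bright probes, 0.057 with array weights, 0.17 without the arrays against their sex label and 0.29 without both sets. Ptges2 was 0.058, 0.042 and 0.049 under the first 3, 0.10 and 0.46 without these arrays and 0.0011 without wild-type stroma 65 and 82. Ptgs1 was -0.24 without both sets. For genotype in tumor, Ptgs1 was 0.037 with quantile scaling, 0.18 with array weights and 0.042 without the arrays against their sex label. Without those arrays Ptgs2 was 0.12, Ptges3 0.021 and Pla2g4a 0.11. With a fixed slide block Ptges was 0.056 and Pla2g4a 0.17, without wild-type tumor 5 Pla2g4a was 0.0020, and with array weights Ptges2 was -0.038 and Ptges3 0.018. Ptges3 was 0.023 with quantile scaling and 0.0026 in the series matrix. Between tissues Ptges2 was 0.024 (all hosts), 0.005 (wild-type) and 0.043 (knockout) with the percentile of bright probes, 0.12 in wild-type hosts with a fixed slide block and 0.0072 in knockout hosts with normexp. For genotype by tissue Ptgs1 was -0.28 and Hpgd, mostly at background in tumor, -0.088 without both sets. With 1 array left out, the genotype difference in stroma ran from -0.096 to 0.065 for Ptges and from -0.20 to 0.10 for Ptges2. In tumor it ran from -0.43 to 0.27 for Ptgs1, -0.13 to 0.0033 for Ptges, -0.017 to 0.17 for Ptges2, -0.063 to 0.047 for Ptges3 and -0.14 to 0.13 for Pla2g4a. The tissue difference of Ptges2 in wild-type hosts ran from -0.18 to 0.13.

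The replicate number as a fixed or random replicate block gave 7 and 7 members between tissues, 5 and 7 in wild-type hosts, 6 and 7 in knockout hosts and 0 and 0 for genotype by tissue. Of 15 shared numbers, 8 had a correlation over 0.1 and 4 correlated best with their own number, which leaves unknown whether a number marks 1 mouse. For number 9 the sex genes differed between the tissues. The Y-linked mean minus Xist was -4.54 in wild-type stroma 9, which reads as female, and 2.84 in wild-type tumor 9, which reads as male. Hpgd is the member whose tumor level the signal over background limits.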
